A study of Homo sapiens with 8 samples.

Results

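Keratins are the intermediate filament proteins of epithelial cells. A filament forms only when a type I (acidic) keratin pairs with a type II (basic) keratin, and the pair that a cell makes follows its cell type. In the prostate, luminal secretory cells carry the simple epithelial pair KRT8 (type II) and KRT18 (type I). Basal cells carry KRT5 with KRT14, and also KRT15 and KRT17. KRT13 belongs to the suprabasal layers of stratified mucosa. The 8 genes KRT5, KRT7, KRT8, KRT13, KRT15, KRT17, KRT18 and KRT19 were followed here, through every probe set that the array annotation gave one of these symbols and no other. This rule gave 8 probe sets of 7 genes among the 12558 probe sets tested, with 2 for KRT7 and 1 for each of the other 6 genes. KRT17 had no probe set of its symbol alone and was not analysed here.

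The values came from 8 Affymetrix U95Av2 arrays in 4 groups of 2: LNCaP Notch1, LNCaP GFP, PC3 Notch1 and PC3 GFP. LNCaP is a prostate cancer line from a lymph node metastasis that responds to androgens, and PC3 is an androgen-independent line from a bone metastasis. Cells of each line were made to overexpress an active Notch1 that needs no ligand, or green fluorescent protein (GFP) as control, and the question was which genes follow Notch activity. The sources used here give neither the vector nor the time of expression for these arrays. The methods give 2 chips per sample, so p-values measure the spread between arrays, which may be technical. Each value is a log2 expression level of 1 probe set on 1 array. Levels of different probe sets have no common scale.

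Arrays of a group correlated at 0.995 to 0.998 over all probe sets. HES1, a direct Notch target, was at 11.22 and 11.23 in LNCaP Notch1 against 8.41 and 8.47 in LNCaP GFP, and at 10.51 and 10.61 in PC3 Notch1 against 7.92 and 8.08 in PC3 GFP. NOTCH1 itself was not analysed here. Over 6 measured luminal markers other than keratins, the mean level was 9.33 to 9.35 on LNCaP GFP arrays and 6.13 to 6.24 on PC3 GFP arrays. For 9 basal markers, KRT14 among them, the mean was 6.07 to 6.18 in LNCaP GFP and 7.89 to 7.98 in PC3 GFP. Markers of stroma (9 genes) and leukocytes (9 genes) had means of 4.85 to 5.86 and 5.22 to 5.58 over all arrays. The median over all probe sets was 6.28 to 6.36 on LNCaP arrays and 5.95 to 6.01 on PC3 arrays, and no source says whether both lines were normalized together.

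With activated Notch1, KRT15 rose 2.13-fold in PC3 and KRT18 fell 1.57-fold in LNCaP, and no other probe set of these genes passed the test in either line. In LNCaP, 0 of 8 probe sets were higher and 1 was lower, where 17.3% of all probe sets were called, 8.01% as higher and 9.32% as lower. In PC3, 1 of 8 was higher and 0 were lower, where 6.20% were called, 4.19% as higher and 2.01% as lower. The median change over the 8 probe sets was 0.03 in LNCaP and -0.08 in PC3 on the log2 scale, beside 0.04 and -0.08 over all probe sets. In bulk RNA, fewer cells of a kind and less RNA per cell cannot be told apart. Calls were made with limma at a Benjamini-Hochberg adjusted p under 0.05 over all probe sets.

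KRT15 is a type I keratin of the basal layer of stratified epithelia. Its probe set (37582_at) read 8.05 and 7.86 in PC3 Notch1 against 6.80 and 6.93 in PC3 GFP. Both Notch1 arrays of PC3 lay above both GFP arrays by close to 1 log2 unit. In LNCaP Notch1 it read 5.08 and 5.21, against 5.16 and 5.11 in LNCaP GFP, and these groups overlapped. All LNCaP values of KRT15 lay just above log2 5, under which 31.9% to 33% of all probe sets on an LNCaP array fell. The data hold no detection call, so a signal near background and a lack of response cannot be told apart in LNCaP. The change was 1.09 ± 0.12 in PC3 (log2, SE, 2.13-fold, limma adjusted p = 0.000424), and 0.01 ± 0.12 in LNCaP, with a 95% interval of -0.26 to 0.28. The LNCaP effect minus the PC3 effect was -1.08 ± 0.17 (adjusted p = 0.00271), so the change of the KRT15 signal differed between the lines beyond the spread of the arrays. Of the 8 probe sets this was the 1 called lower in that comparison and 0 were called higher, where 14.2% of all probe sets were called, 7.67% as lower and 6.49% as higher.

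**Figure D1:**
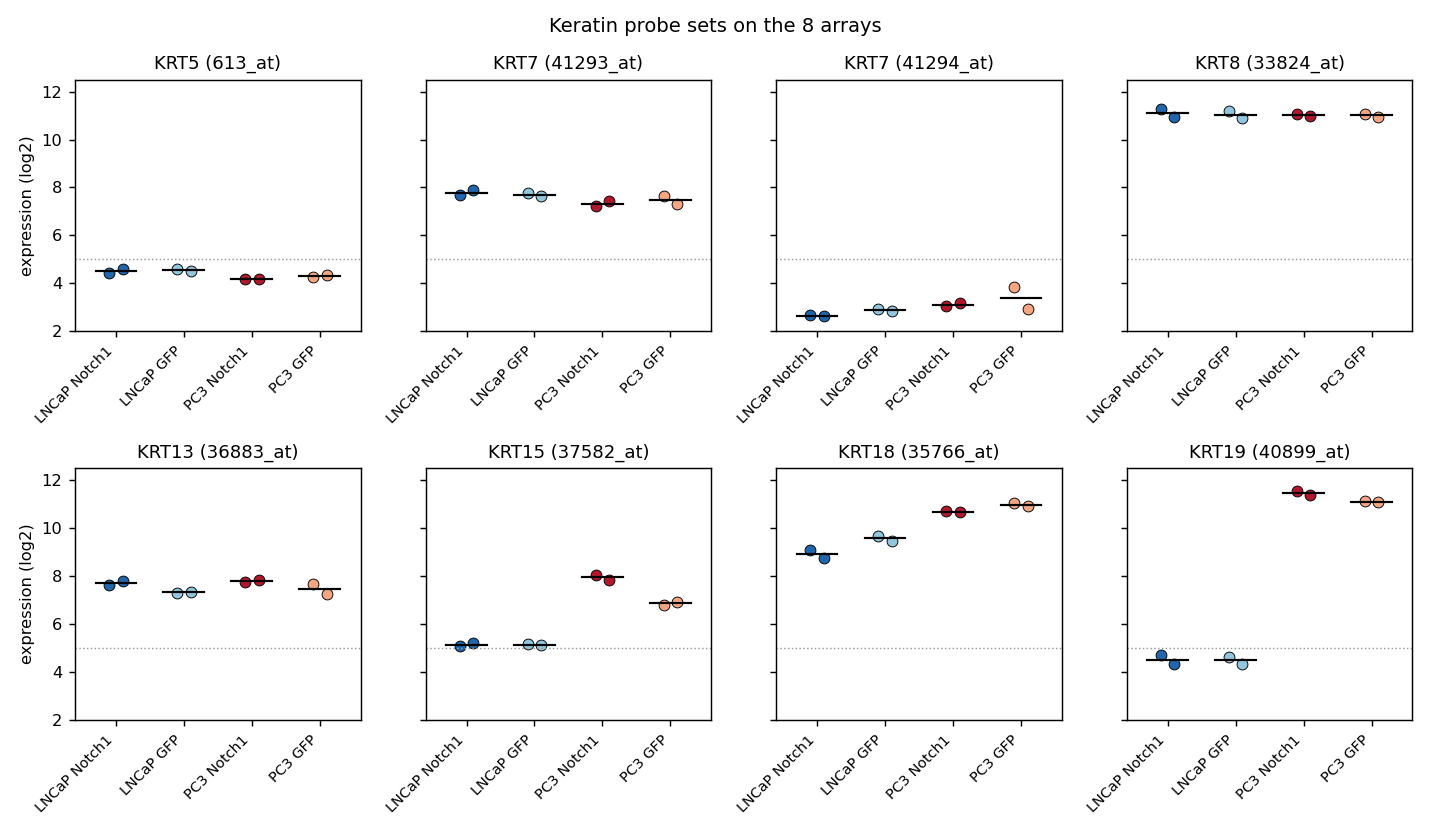
Expression level (log2, y axis) of each of the 8 keratin probe sets by group (x axis), with n = 2 arrays a group. Points are single arrays, the black bar is their mean and the dotted line marks log2 5. KRT15 is higher in PC3 Notch1 (8.05 and 7.86) than in PC3 GFP (6.80 and 6.93), KRT18 is lower in LNCaP Notch1 (9.10 and 8.75) than in LNCaP GFP (9.69 and 9.46), and KRT19 is under the line on the 4 LNCaP arrays.

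KRT5, the type II keratin of basal cells, was low in both lines. It read 4.42 and 4.59 in LNCaP Notch1 against 4.58 and 4.50 in LNCaP GFP, and 4.16 on both PC3 Notch1 arrays against 4.27 and 4.36 in PC3 GFP. All 8 values lay under log2 5, a range that held 31.9% to 37.6% of all probe sets on an array, and the files hold no detection call. The change was -0.04 in LNCaP (interval -0.30 to 0.22) and -0.16 in PC3 (-0.42 to 0.10), with limma adjusted p = 0.884 and 0.405. KRT14, the type I partner of KRT5 in basal cells, read 6.51 and 6.26 in LNCaP Notch1 against 6.52 and 6.32 in LNCaP GFP, and 6.01 and 6.02 in PC3 Notch1 against 6.05 and 5.91 in PC3 GFP. Neither member of the basal pair was called with Notch1 in either line.

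KRT18, the type I member of the luminal pair, read 9.10 and 8.75 in LNCaP Notch1 against 9.69 and 9.46 in LNCaP GFP. Both LNCaP Notch1 arrays were below both GFP arrays. In PC3 Notch1 it read 10.74 and 10.66 against 11.05 and 10.93 in PC3 GFP, also without overlap. KRT18 fell by 0.65 on the log2 scale in LNCaP (SE 0.14, 1.57-fold lower, limma adjusted p = 0.0104), and its change in PC3 was -0.29 ± 0.14 (interval -0.61 to 0.03, adjusted p = 0.233). The difference between these effects was -0.36 (interval -0.81 to 0.10, adjusted p = 0.25), so KRT18 was not shown to respond differently in the lines. In LNCaP the change no longer passed once LNCaP GFP replicate 1 was left out (-0.54, adjusted p = 0.0781), or LNCaP Notch1 replicate 2 (-0.48, adjusted p = 0.0957), or with values under log2 5 raised to 5 (-0.65, adjusted p = 0.0699). All KRT18 values lay above log2 5, so raising low values left them as they were. It altered the spread estimate and the adjustment, which draw on all probe sets. The excess of 3' over 5' signal, a measure of RNA integrity, was 0.45 ± 0.10 in LNCaP Notch1 and 0.62 ± 0.06 in LNCaP GFP for ACTB (log2, SD, n = 2). For GAPDH it was 0.38 ± 0.03 in LNCaP Notch1 and 0.56 ± 0.01 in LNCaP GFP. Its part in the KRT18 result was not tested.

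KRT8, the type II partner of KRT18, did not pass the test in any comparison. It read 11.27 and 10.93 in LNCaP Notch1 against 11.20 and 10.89 in LNCaP GFP, and 11.06 and 10.97 in PC3 Notch1 against 11.08 and 10.95 in PC3 GFP. The groups overlapped in both lines. The change was 0.06 in LNCaP (interval -0.28 to 0.39) and 0.00 in PC3 (-0.33 to 0.34).

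Replicate 1 was above replicate 2 for both KRT8 and KRT18 in every group, so KRT18 was also taken relative to KRT8 on the same array, a value chosen after the levels were seen. Because the probe sets have no common scale, only the change of this difference between groups can be read. It was -2.17 and -2.18 in LNCaP Notch1 against -1.51 and -1.43 in LNCaP GFP, and -0.32 and -0.31 in PC3 Notch1 against -0.02 on both PC3 GFP arrays. Relative to KRT8, KRT18 was 1.63-fold lower with Notch1 in LNCaP and 1.23-fold lower in PC3. The groups overlapped in neither line, and the exact two-sided permutation test gave p = 0.333 in each line, the smallest that 2 arrays against 2 allow.

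**Figure D2:**
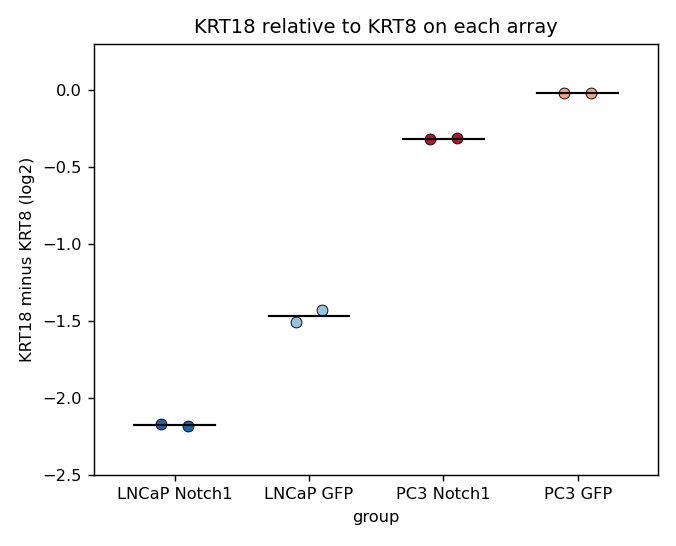
Log2 level of KRT18 minus that of KRT8 on the same array (y axis) by group (x axis), with n = 2 arrays a group. Bars are means. LNCaP Notch1 (-2.17 and -2.18) lies below LNCaP GFP (-1.51 and -1.43), and PC3 Notch1 (-0.32 and -0.31) below PC3 GFP (-0.02 on both arrays).

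KRT19, a type I keratin of simple epithelia that lacks the tail domain of other keratins, read 4.70 and 4.34 in LNCaP Notch1 against 4.61 and 4.35 in LNCaP GFP, all under log2 5. In PC3 Notch1 it read 11.57 and 11.37, against 11.13 and 11.09 in PC3 GFP, so the PC3 groups did not overlap. Its change was 0.04 in LNCaP (interval -0.29 to 0.38) and 0.36 in PC3 (0.02 to 0.70). After adjustment over all probe sets the PC3 value did not pass (limma adjusted p = 0.176).

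KRT13 read 7.64 and 7.79 in LNCaP Notch1 against 7.31 and 7.33 in LNCaP GFP, and 7.76 and 7.85 in PC3 Notch1 against 7.66 and 7.24 in PC3 GFP. The Notch1 arrays were the upper pair in both lines. The change was 0.40 ± 0.15 in LNCaP (limma adjusted p = 0.0971) and 0.36 ± 0.15 in PC3 (adjusted p = 0.168), and neither passed. The LNCaP value passed without PC3 GFP replicate 1 or without PC3 GFP replicate 2 (0.40, adjusted p = 0.0347 in both), since all groups share 1 estimate of the spread. KRT13, KRT15 and KRT19 are neighbours in this order in the type I cluster of the RefSeq annotation of GRCh38.p14, and of these 3 genes KRT15 in PC3 was the 1 change called.

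KRT7, a type II keratin of glandular epithelia, had 2 probe sets. The first (41293_at) read 7.68 and 7.90 in LNCaP Notch1 against 7.75 and 7.66 in LNCaP GFP, and 7.21 and 7.43 in PC3 Notch1 against 7.66 and 7.30 in PC3 GFP. The second (41294_at) lay under log2 5 throughout, at 2.68 and 2.62 in LNCaP Notch1 against 2.92 and 2.84 in LNCaP GFP, and at 3.05 and 3.16 in PC3 Notch1 against 3.86 and 2.91 in PC3 GFP. None of these 4 changes was called. For 41293_at the change was 0.09 in LNCaP (interval -0.25 to 0.42) and -0.16 in PC3 (-0.50 to 0.17), and for 41294_at it was -0.23 (-0.75 to 0.29) and -0.28 (-0.81 to 0.24). The 2 GFP arrays of PC3 lay far apart for 41294_at (3.86 and 2.91), and the sign of its change in PC3 depended on them. It was -0.75 without PC3 GFP replicate 2, 0.19 without PC3 GFP replicate 1, and 0 with values under log2 5 raised to 5.

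Counted over the 8 probe sets, arrays did not overlap between Notch1 and GFP for 3 in LNCaP and 5 in PC3, where 57.0% and 56.0% of all probe sets did not overlap. Read against these shares, the counts are no result about keratins.

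**Figure D3:**
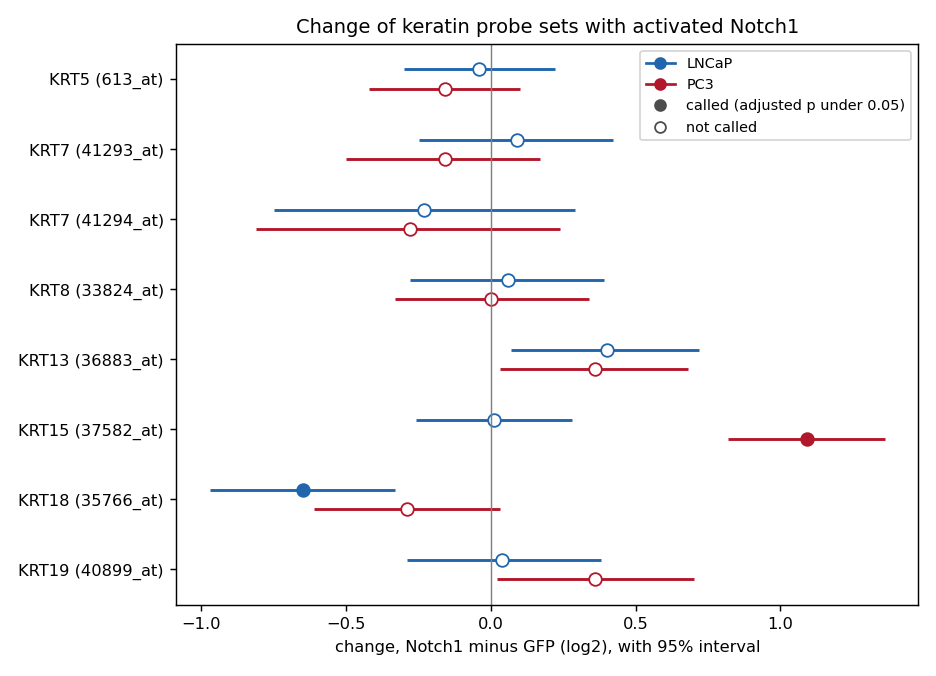
Change with activated Notch1 (Notch1 minus GFP, log2, x axis) of each keratin probe set (y axis) in LNCaP (blue, upper) and PC3 (red, lower), with n = 2 arrays a group. Lines are 95% intervals of the limma fit and filled points are calls at an adjusted p under 0.05. The calls are KRT18 in LNCaP (-0.65) and KRT15 in PC3 (1.09).

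Between the control cells of the lines, 3 of the 8 probe sets differed by more than any of the 8 changed with Notch1. In LNCaP GFP against PC3 GFP, 0 of 8 probe sets were higher and 3 were lower, where 58.8% of all probe sets were called, 40.3% as higher and 18.5% as lower. These were the type I keratins KRT19, KRT15 and KRT18. KRT19 read 4.61 and 4.35 in LNCaP GFP against 11.13 and 11.09 in PC3 GFP, a difference of -6.63 ± 0.15 (99-fold lower in LNCaP, limma adjusted p = 9.41e-11). With values under log2 5 raised to 5 the difference was -6.11, still the largest of the 8. KRT15 was 3.32-fold lower in LNCaP GFP (-1.73 ± 0.12, adjusted p = 4.79e-07) and KRT18 was 2.67-fold lower (-1.42 ± 0.14, adjusted p = 8.57e-06). The excess of 3' over 5' signal also differed between these cells. It was 0.62 ± 0.06 in LNCaP GFP and 0.38 ± 0.07 in PC3 GFP for ACTB, and 0.56 ± 0.01 in LNCaP GFP and 0.02 ± 0.07 in PC3 GFP for GAPDH (log2, SD, n = 2), and its part in these differences was not tested.

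None of the type II keratins passed the test between the control cells in the fit to the values as deposited. KRT8 differed by 0.03 (LNCaP GFP minus PC3 GFP, interval -0.31 to 0.36), KRT5 by 0.22 (-0.03 to 0.48) and KRT7 by 0.22 (-0.11 to 0.56) and -0.50 (-1.03 to 0.02) on its 2 probe sets. The type I keratin KRT13 differed by -0.13 (-0.46 to 0.19). LNCaP GFP and PC3 GFP arrays did not overlap for 5 of the 8 probe sets, where 78.4% of all probe sets did not. The median of the differences over all probe sets was 0.22 (LNCaP GFP minus PC3 GFP). The array medians were 6.28 on both LNCaP GFP arrays and 6.01 and 5.99 on the PC3 GFP arrays. With each array centred on its median, the differences were -6.91 for KRT19, -2.01 for KRT15 and -1.70 for KRT18, KRT5 and KRT8 turned to -0.06 and -0.25 without passing, and KRT13 (-0.41, adjusted p = 0.0306) and the second KRT7 probe set (-0.78, adjusted p = 0.0141) passed as lower. That KRT7 probe set also passed with quantile normalization (-0.91, adjusted p = 0.00584) and without PC3 GFP replicate 2 (-0.98, adjusted p = 0.000124), and was at -0.03 without PC3 GFP replicate 1 and at 0 with values under log2 5 raised to 5.

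The order of the group means followed from this. KRT15 was highest in PC3 Notch1 (7.96 ± 0.14), then PC3 GFP (6.87 ± 0.09), then LNCaP Notch1 (5.15 ± 0.09) and LNCaP GFP (5.13 ± 0.04, SD, n = 2), the last 2 of which overlapped. KRT18 was highest in PC3 GFP, then PC3 Notch1, LNCaP GFP and LNCaP Notch1, and the 2 PC3 groups were not called different. KRT19 stood in PC3 Notch1, PC3 GFP, then both LNCaP groups, with neighbours in this order within each line not called different. KRT8, KRT5 and the 2 probe sets of KRT7 had no pair of compared groups that passed.

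Among the other keratins, 19 of 40 listed genes were measured by 20 probe sets, and 5 of these lay under log2 5 on all 8 arrays. In LNCaP 1 probe set was called higher and 0 lower with Notch1, where 17.3% of all probe sets were called. In PC3 4 were higher and 0 lower, where 6.20% of all were called. The median change of the 20 probe sets was 0.14 in LNCaP and -0.17 in PC3.

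KRT16, a type I keratin that stratified epithelia make on injury and in fast-growing states, rose in PC3 on both of its probe sets. On 37473_at it read 7.58 and 7.65 in LNCaP Notch1 against 7.16 and 7.28 in LNCaP GFP, and 8.94 and 8.75 in PC3 Notch1 against 7.54 and 7.38 in PC3 GFP. On 601_s_at it read 6.20 and 6.30 in LNCaP Notch1 against 6.0 and 5.85 in LNCaP GFP, and 8.67 and 8.34 in PC3 Notch1 against 6.23 and 6.16 in PC3 GFP. The rise in PC3 was 1.38 and 2.31 on these probe sets (limma adjusted p = 8.24e-05 and 3.47e-06). The change in LNCaP was 0.39 and 0.33 (adjusted p = 0.0528 and 0.143). The LNCaP effect minus the PC3 effect was -0.99 and -1.98 (adjusted p = 0.00432 and 0.000127).

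KRT75, a type II keratin of the companion layer of the hair follicle, read 7.88 on both LNCaP Notch1 arrays against 7.69 and 7.67 in LNCaP GFP, and 12.32 and 12.13 in PC3 Notch1 against 10.54 and 10.34 in PC3 GFP. It rose by 1.78 in PC3 (limma adjusted p = 1.15e-05), its change in LNCaP was 0.20 (adjusted p = 0.339), and the LNCaP effect minus the PC3 effect was -1.58 (adjusted p = 0.000273). KRT10, the type I keratin of suprabasal epidermis, was measured by 38610_s_at alone and was called in both lines. It read 10.30 and 10.29 in LNCaP Notch1 against 9.38 and 9.43 in LNCaP GFP, a change of 0.89 (adjusted p = 0.000316). In PC3 Notch1 it read 10.87 and 10.77 against 10.27 and 10.34 in PC3 GFP, a change of 0.51 (adjusted p = 0.0246), which did not pass with PC3 Notch1 replicate 1 left out (0.46, adjusted p = 0.178), nor with PC3 Notch1 replicate 2 (0.56, adjusted p = 0.104) or the first PC3 GFP array (0.47, adjusted p = 0.12) left out. It also did not pass with quantile normalization (0.40, adjusted p = 0.0637) or in a fit of the PC3 arrays alone (0.51, adjusted p = 0.0753).

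Keratins of a type are close in sequence. Which of these probe sets could take up RNA of a related keratin or a pseudogene was not tested, and the _s_at sets were designed to match more than one transcript.

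**Figure D4:**
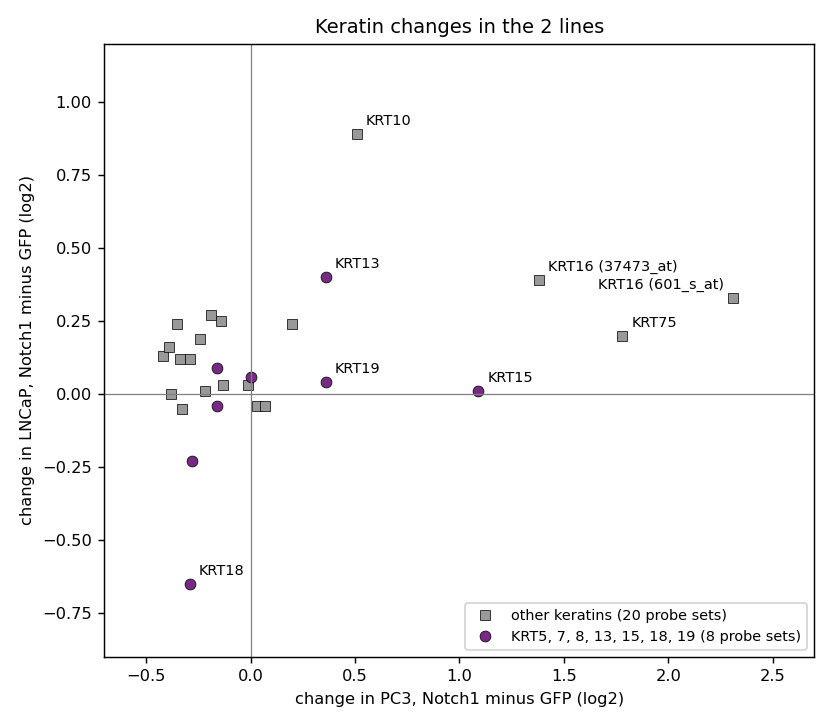
Change with activated Notch1 (Notch1 minus GFP, log2) in PC3 (x axis) and in LNCaP (y axis) for the 8 keratin probe sets described (circles) and the 20 probe sets of other keratins (squares). KRT15, KRT16 and KRT75 lie to the right, with 1.09 to 2.31 in PC3 and 0.01 to 0.39 in LNCaP, and KRT10 is raised in both.

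In the control cells, 3 of the 20 probe sets of other keratins were higher and 3 lower in LNCaP GFP than in PC3 GFP. Over all probe sets 40.3% were called higher and 18.5% lower. KRT2 (0.99), KRT14 (0.44) and KRT9 (0.32) were higher, and KRT75 (-2.76), KRT20 (-1.03) and KRT10 (-0.90) were lower. Of the 3 higher ones, KRT2 still passed with median centring (0.71, limma adjusted p = 0.000491), while KRT14 (0.16, adjusted p = 0.307) and KRT9 (0.04, adjusted p = 0.785) did not. With quantile normalization KRT14 (0.16, adjusted p = 0.305) and KRT9 (0.10, adjusted p = 0.512) did not pass either, nor did KRT9 in a fit of the GFP arrays alone (0.32, adjusted p = 0.0626). KRT14 also did not pass when the second PC3 GFP array (0.37, adjusted p = 0.0688) or the first LNCaP GFP array (0.34, adjusted p = 0.117) was left out, nor KRT9 when any 1 GFP or PC3 Notch1 array was (0.25 to 0.40, adjusted p = 0.0585 to 0.221). KRT2 and KRT9 are keratins of the epidermis, KRT9 that of palm and sole, and KRT20 is an intestinal and urothelial keratin that lay under log2 5 on all arrays, so that its difference was 0 with values under log2 5 raised to 5.

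The genes that anchor keratin filaments at desmosomes and hemidesmosomes had calls in both directions, as all probe sets did. Of 20 measured genes, 2 were higher and 2 lower in LNCaP, where 8.01% of all probe sets were called higher and 9.32% lower. In PC3 2 were higher and 3 lower, where 4.19% and 2.01% of all probe sets were. Median changes were 0.01 in LNCaP and -0.25 in PC3. DSP, the desmosomal plaque protein that binds keratin filaments, read 10.68 and 10.96 in LNCaP Notch1 against 9.50 and 9.80 in LNCaP GFP (1.18, limma adjusted p = 0.0015), and lay at 2.00 or below on every PC3 array. PKP3, a plakophilin of the plaque, fell by 0.94 in LNCaP (adjusted p = 0.00117). PKP4 fell in both lines, by 1.11 in LNCaP (adjusted p = 0.000201) and by 0.73 in PC3 (adjusted p = 0.00895), while its second probe set was at -0.08 in LNCaP and -0.31 in PC3 without passing. The PC3 call was lost without PC3 Notch1 replicate 1 (-0.63, adjusted p = 0.104) and with values under log2 5 raised to 5 (-0.73, adjusted p = 0.0631). All values of that PKP4 probe set lay above log2 5, so raising low values did not change them. PKP2 was higher in PC3 (2.45, adjusted p = 6.62e-06), with all arrays under log2 5.

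ITGB4, the hemidesmosomal integrin chain to which keratins are tied through plectin, read 7.0 and 6.84 in PC3 Notch1 against 8.51 and 8.36 in PC3 GFP (-1.51, limma adjusted p = 0.000127). Its change in LNCaP was 0.26 (adjusted p = 0.274), and a second probe set was at -0.20 in PC3 (adjusted p = 0.349).

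Basal markers other than KRT5 and KRT15, a list that includes KRT14, had genes that rose beside KRT15 in PC3. Of 9 measured genes, 2 were higher and 0 lower in LNCaP, where 17.3% of all probe sets were called. In PC3, where 6.20% were called, 3 genes were higher and 1 lower. Median changes were 0.15 in LNCaP and 0.03 in PC3. S100A2, a calcium-binding protein of basal cells, rose by 1.18 in PC3 (limma adjusted p = 0.000223, 1.30 on its second probe set), and CD44, the hyaluronan receptor, by 0.91 (adjusted p = 0.00118). CD44 had 7 probe sets, of which 3 rose in PC3 and the other 4 were at -0.04 to 0.08. SFN (14-3-3 sigma) rose by 1.75 in LNCaP (adjusted p = 2.41e-05) and by 0.64 in PC3 (adjusted p = 0.0351), with 1.94 and 0.50 on its second probe set, of which the PC3 value did not pass (adjusted p = 0.0634). LAMB3, a laminin chain of the basement membrane, rose by 0.44 in LNCaP (adjusted p = 0.0345). The SFN call in PC3 was lost without any 1 of the 4 PC3 arrays (0.53 to 0.75, adjusted p = 0.0533 to 0.237), and that of LAMB3 without any 1 of LNCaP GFP replicate 2, either LNCaP Notch1 array or either PC3 Notch1 array (0.30 to 0.47, adjusted p = 0.0602 to 0.298). LAMB3 also did not pass with median centring (0.37, limma adjusted p = 0.0631) or in a fit of the LNCaP arrays alone (0.44, adjusted p = 0.0549). With values under log2 5 raised to 5, which left both genes' values as they were, neither SFN in PC3 (adjusted p = 0.162) nor LAMB3 (adjusted p = 0.064) passed. The gene of this list that fell was ITGB4.

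Of 6 measured luminal markers other than keratins, 0 were called in PC3 (median change -0.29), where 6.20% of all probe sets were called. In LNCaP 0 were higher and 4 lower (median change -0.78), where 8.01% of all were called higher and 9.32% lower. ACP3, the prostatic acid phosphatase, fell by 1.91 (limma adjusted p = 4.16e-06), KLK2, a secreted kallikrein, by 1.51 (adjusted p = 0.000494), TMPRSS2, a membrane protease, by 0.82 (adjusted p = 0.00214) and KLK3, the prostate-specific antigen, by 0.75 (adjusted p = 0.00579). The transcription factors FOXA1 (-0.33, adjusted p = 0.219) and HOXB13 (-0.23, adjusted p = 0.299) did not pass, nor did KRT8 (0.06).

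Genes of suprabasal and squamous differentiation, a list that includes KRT10 and KRT16, had 25 of 34 genes measured. In LNCaP 2 were higher and 1 lower, and in PC3 4 were higher and 1 lower, with median changes of 0.11 and -0.22. Over all probe sets 17.3% were called in LNCaP and 6.20% in PC3. SERPINB3, a serpin of squamous epithelia, read 8.57 and 8.99 in PC3 Notch1 against 2.43 and 1.82 in PC3 GFP, a change of 6.66 (limma adjusted p = 8.19e-08) that was 3.78 with values under log2 5 raised to 5. PI3, the protease inhibitor elafin, rose by 2.20 in PC3 (adjusted p = 5.49e-06). In LNCaP, TGM3, an epidermal transglutaminase, fell by 1.11 (adjusted p = 0.000696), and FLG, which bundles keratin filaments in the epidermis, was 0.89 higher (adjusted p = 0.00158) with all arrays under log2 5.

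Of 14 other intermediate filament genes, 1 was higher and 0 lower in LNCaP, where 17.3% of all probe sets were called. In PC3, where 6.20% were called, 2 were higher and 1 lower. Median changes were 0.19 in LNCaP and -0.16 in PC3. LMNB1, a nuclear lamin, rose by 1.42 in LNCaP (limma adjusted p = 1.94e-05) and fell by 0.68 in PC3 (adjusted p = 0.00799), and the effects differed by 2.10 (adjusted p = 5.6e-05). Its call in PC3 was lost without PC3 Notch1 replicate 2 (-0.60, adjusted p = 0.0975). NEFL, the light neurofilament, rose by 1.67 in PC3 (adjusted p = 0.00025) on one probe set and was at 0.23 on another (adjusted p = 0.305). SYNM, which joins other filaments to desmin and vimentin, was 1.06 higher in PC3 (adjusted p = 0.0337). It read 4.79 and 4.64 in PC3 Notch1 against 3.18 and 4.13 in PC3 GFP, all under log2 5. Its change was 0 with values under log2 5 raised to 5, and did not pass in a fit of the PC3 arrays alone (1.06, adjusted p = 0.0702). The call was also lost without the first PC3 GFP array (0.58), either PC3 Notch1 array or either LNCaP Notch1 array (0.99 to 1.13).

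Markers of other cell types gave 0 or 1 call a list in each line, where 17.3% of all probe sets were called in LNCaP and 6.20% in PC3. Of 9 stromal genes, 1 was higher in LNCaP (ACTA2, smooth muscle actin, by 1.28) and 0 were called in PC3. Of 9 leukocyte genes, 0 were called in LNCaP and 1 was lower in PC3 (ITGB2, -0.52, under log2 5 on all arrays). NTS, neurotensin, was the 1 of 6 neuroendocrine genes called in each line, at -0.60 in LNCaP and -1.93 in PC3. All PC3 values of NTS lay under log2 5, and its change there was 0 with values under log2 5 raised to 5. In LNCaP the NTS call was lost with quantile normalization (-0.56, limma adjusted p = 0.0818). ITGB2 in PC3 did not pass with median centring (-0.48, adjusted p = 0.0592) or quantile normalization (-0.42, adjusted p = 0.0832). It also failed with an intensity trend in the prior (adjusted p = 0.0578) and in a fit of the PC3 arrays alone (adjusted p = 0.105). The ITGB2 call was lost with any 1 array left out other than PC3 GFP replicate 2 (-0.64 to -0.39, limma adjusted p = 0.0611 to 0.295), and that of NTS in LNCaP with any 1 LNCaP or PC3 Notch1 array left out (-0.68 to -0.53, adjusted p = 0.0656 to 0.208).

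Across the 8 arrays, the genes whose levels ran most like those of KRT15 were SERPINB1 (Pearson r = 0.998), KRT75 (0.997) and TCN1 (0.997). Those most like KRT18 were POLR2H (0.997), PPFIA3 (0.996) and EIF6 (0.996). These are the first 3 genes among 3934 candidate probe sets for each, given as a description over 8 arrays of 2 lines that differ in these levels. In PC3 the change was 3.03 for SERPINB1 and 2.43 for TCN1, and in LNCaP 0.12 and -0.06, and the way these genes were chosen fixes their likeness to KRT15. The genes most like KRT18 changed by -0.69 to -0.27 in LNCaP and by -0.16 to -0.13 in PC3.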

How the data were processed

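The authors made log2 values from their raw array files with RMA, a method that subtracts background, brings the arrays to a common distribution and summarises the probes of each set, and deposited these without pooling arrays. They went on to limma, and the sources used here give no tool versions. From 12625 probe sets, 67 control sets were left out and 12558 tested, and 10943 had 1 gene symbol, 545 several and 1070 none. Entrez identifiers of 10934 matched the RefSeq table of GRCh38.p14, used for names and neighbours.

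One linear model with 4 group means was fitted to all 8 arrays with limma 3.58.1 in R 4.3.3 (4 residual and 6.37 prior degrees of freedom). Tests are two-sided, and p-values were adjusted by Benjamini-Hochberg over all tested probe sets. With 2 arrays a group, precision is limited by their number. The fit was tested on simulated data before use. It recovered 46.3% of 1.5-fold and 85.1% of 2-fold changes in LNCaP, and 41.8% and 83.6% in PC3. Changes of 1.5-fold or less, and some of 2-fold, could thus go uncalled. The simulation changed far fewer probe sets than were called in the data, so these shares may not carry over.

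The keratins and the 9 other gene lists were chosen with earlier results of these data known. For each listed gene, the probe set brightest on average was taken. Text names every keratin probe set, each called probe set of other keratins, up to 3 called genes of each other list with the largest change in each line, HES1, and the 3 genes most like a keratin called with Notch1. KLK3, FOXA1 and HOXB13 were named after their values were seen. Alternatives were median centring, quantile normalization, a filter on dim probe sets (mean above the 25th percentile, log2 4.23), values under log2 5 raised to 5, only the arrays compared, an intensity trend in the prior, the replicate number as a block, and leaving out each array.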

Additional observations from a re-analysis of the deposited data

Results flagged for a closer look

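For 4 keratin probe sets the effect of activated Notch1 differed between the lines (limma test of the LNCaP effect minus the PC3 effect). These were 1 of the 8 followed and 3 of the 20 of other keratins, where 14.2% of all probe sets were called. Read against this share, the count is no result about keratins. The difference was -1.08 for KRT15 (adjusted p = 0.00271), -0.99 for KRT16 on 37473_at (adjusted p = 0.00432), -1.98 for KRT16 on 601_s_at (adjusted p = 0.000127) and -1.58 for KRT75 (adjusted p = 0.000273). In each case both PC3 Notch1 arrays lay above both PC3 GFP arrays, and the change in LNCaP did not pass the test. For KRT15 the LNCaP values lay just above log2 5. All 4 kept their direction and call under every alternative run, including each array left out, with KRT15 at -1.17 to -0.98, KRT16 at -1.09 to -0.86 and -2.15 to -1.82, and KRT75 at -1.69 to -1.43.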

How the results depend on the processing

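KRT15 kept its call in PC3 under all 15 alternatives (0.99 to 1.19; adjusted p = 0.000309 to 0.0175), as did KRT15, KRT18 and KRT19 between control cells. KRT18 in LNCaP ranged from -0.82 to -0.48 (adjusted p = 0.00226 to 0.0957) and lost its call in 3. The count of keratin probe sets called in LNCaP was 0 with values under log2 5 raised to 5, where the prior degrees of freedom were 0.386, and 0 to 2 with an array left out. In PC3 it was 1 to 2 with an array left out, the 2 without PC3 GFP replicate 2. Between control cells it was 5 with median centring, 4 with quantile normalization and 3 to 4 with an array left out. The difference of the effects gave 1 throughout.

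Of 468 values of the keratin probe sets under alternatives, 39 changed sign, 0 of them called. With median centring these were, for LNCaP GFP minus PC3 GFP, KRT5 (-0.06), KRT7 41293_at (-0.06) and KRT8 (-0.25); for the LNCaP effect minus the PC3 effect, KRT7 41294_at (-0.05), KRT8 (-0.04) and KRT13 (-0.06); and in LNCaP, KRT15 (-0.05), KRT19 (-0.02) and KRT8 (0 after rounding). With quantile normalization they were KRT5 (-0.06) and KRT7 41294_at (-0.11) for the difference of the effects, KRT5 between control cells (-0.10), KRT8 in PC3 (-0.08), and KRT15 (-0.06) and KRT19 (-0.04) in LNCaP. With an array left out, the LNCaP change ranged from -0.12 to 0.05 for KRT5, -0.03 to 0.20 for KRT7 41293_at, -0.11 to 0.23 for KRT8, -0.05 to 0.08 for KRT15 and -0.14 to 0.22 for KRT19. The PC3 change ranged from -0.34 to 0.01 for KRT7 41293_at, -0.75 to 0.19 for KRT7 41294_at and -0.06 to 0.07 for KRT8. The difference of the effects ranged from -0.42 to 0.52 for KRT7 41294_at, -0.11 to 0.23 for KRT8 and -0.17 to 0.25 for KRT13, and the difference between control cells from -0.13 to 0.19 for KRT8 and -0.34 to 0.08 for KRT13.

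Replicate numbers are shared by the groups, and deviations of replicate 1 correlated at 0.124 to 0.545 between groups, but no source says what a number marks. With the replicate number as a block, 1 keratin probe set was called in LNCaP, 1 in PC3, 1 for the difference of the effects and 3 between control cells. Over all probe sets the block gave 1357 higher and 1514 lower in LNCaP, against 1006 and 1170 without it, and 919 and 588 in PC3, against 526 and 253. The share of calls that were higher was 68.6% between control cells, 46.3% with median centring and 49.1% with quantile normalization, and for the difference of the effects it was 45.8%, and 30.4% with median centring. With values under log2 5 raised to 5, calls over all probe sets were 685 higher and 730 lower in LNCaP and 208 and 139 in PC3. With an array left out they were 539 to 1196 and 638 to 1350 in LNCaP, and 187 to 1003 and 64 to 691 in PC3. Of 42 changes or differences of other named genes that were run under the alternatives, 14 lost their call under at least 1 alternative and 0 changed sign. KLK3, FOXA1, HOXB13 and, apart from KRT75, the genes most like KRT15 or KRT18 were not among them. The alternatives for other keratins between control cells were added after the data were seen.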
